A study of Mus musculus with 4 samples.

Results

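The genes described here are 46 genes of mitosis and of the passage from G2 into mitosis, taken by name as a fixed list. Of these, 44 had a probe set under their own symbol among the 12393 genes on the array, and 41 were among the 9295 genes bright enough to test. Ccnb1 and Espl1 had no probe set listed under their symbol. Cdc25c, Cenpe and Mybl2 were on the array but lay in the dimmest 25% of genes, under a mean signal of 2.18.

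The samples were C2C12 cells, an established mouse myoblast line, and every group was held in methyl cellulose suspension for 48 hours, which takes these cells out of the cell cycle into G0. Medium with 20% fetal calf serum was the growth medium per the labels' protocols. The 2 control arrays carry the treatment label control, and the 2 Wnt3A arrays come from cells given purified Wnt3A, a secreted ligand that stabilises β-catenin, at 50 ng/ml. The labels call the 2 arrays of a group biological replicates but do not say how the cultures were kept apart, so a spread here may be partly technical. No array of cycling cells is among the 4, so a level in G0 could not be set against a level in dividing cells.

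Signals are given on a log2 scale, a difference is Wnt3A minus control, and a difference of 1 is a 2-fold change. Genes were fitted in limma on the group alone, with Benjamini-Hochberg adjustment over all 9295 genes. An SE from this fit includes any gap between replicate numbers. Median signals of the arrays lay between 4.15 and 4.22. The hybridization controls averaged 7.09 and 7.25 on control replicates 1 and 2 and 7.05 and 6.66 on Wnt3A replicates 1 and 2. The probe sets for 18S ribosomal RNA averaged 10.42 and 7.21 on the control arrays and 10.46 and 9.40 on the Wnt3A arrays. The gap between the 3′ and 5′ probe sets of actin ran from 0.70 to 0.93. All 6 myoblast markers, among them Des, Myf5 and Myog, were above 2.18 on every array. Of 10 markers of leukocytes, endothelium and epithelium, 5 were under it on every array (Ptprc, Pecam1, Cdh5, Epcam and Cdh1), and Kdr crossed it. The other 4 were above it on every array: Cd14 (7.54 and 7.40 on the controls, 6.16 and 6.46 under Wnt3A), Csf1r, which reached 5.19, Krt19, which reached 5.61, and Cd68.

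Entry into mitosis is driven by Cdk1 bound to cyclins A and B, and the anaphase-promoting complex then destroys the cyclins and securin so that sister chromatids part and the cell divides. Most genes of this machinery are transcribed late in the cell cycle, switched on by B-Myb and FoxM1 on the MuvB core and by NF-Y. In G0 the same core joins p130 and E2F4 in the DREAM complex, which keeps these genes low. The members are therefore read in muscle cells as a sign of how far a culture has left the cycle. In extracts of whole cultures, fewer cells in mitosis and less RNA per cell cannot be told apart.

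No member was told apart between Wnt3A and control by the test over all genes. Of the 41 tested members 0 had an adjusted p under 0.05 in limma, as did 0 of all 9295 genes (0%). At an unadjusted p under 0.05 there were 0 members higher, against 2.46% of all genes, and 1 member lower (2.44%), against 3.22%. That member was Nek2, a kinase of the centrosome cycle. Those counts come from the fit on the group alone, whose error includes the gap between replicate numbers. With the replicate number as a block, unadjusted p in limma was 0.0037 for Cdc25b, 0.0058 for Ube2c and 0.010 for Bub1, all higher. It was 0.042 for Nek2, lower. Further members, among them Ccnb2, were higher under 0.05 in that fit. No share of all genes was computed for it, and 0 members passed after adjustment. The mean was higher with Wnt3A for 26 members (63.4%, against 47% of all genes) and lower for 15. The median difference over the 41 was 0.22, against -0.02 over all genes tested. With arrays scaled to their hybridization controls the split was 37 higher and 4 lower, but the median of all genes moved to 0.30. That scaling shifts all genes of an array equally, so it cannot change the members' median relative to all genes, which was 0.24. The sign of the members' median difference turned with the arrays used. Leaving out control replicate 1 gave -0.27 and leaving out Wnt3A replicate 2 gave -0.21, while leaving out control replicate 2 gave 0.71 and leaving out Wnt3A replicate 1 gave 0.63.

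Few members had groups that kept apart. Both Wnt3A arrays lay above both control arrays for 3 of the 41 members (7.32%), against 14.7% of all genes tested, and below both for 2 (4.88%), against 19.8%. The 3 were Cdc25b, Cks2 and Cenpf, and the 2 were Nek2 and Kif11. Both shares are under those of all genes. A wide gap between replicate arrays makes groups overlap, so these shares do not measure the size of the Wnt3A difference. The absolute gap between replicate arrays, averaged over the 2 groups, was set beside the absolute Wnt3A difference. The gap was the wider for 36 of the 41 members, against 6079 of the 9295 genes tested.

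**Figure D1:**
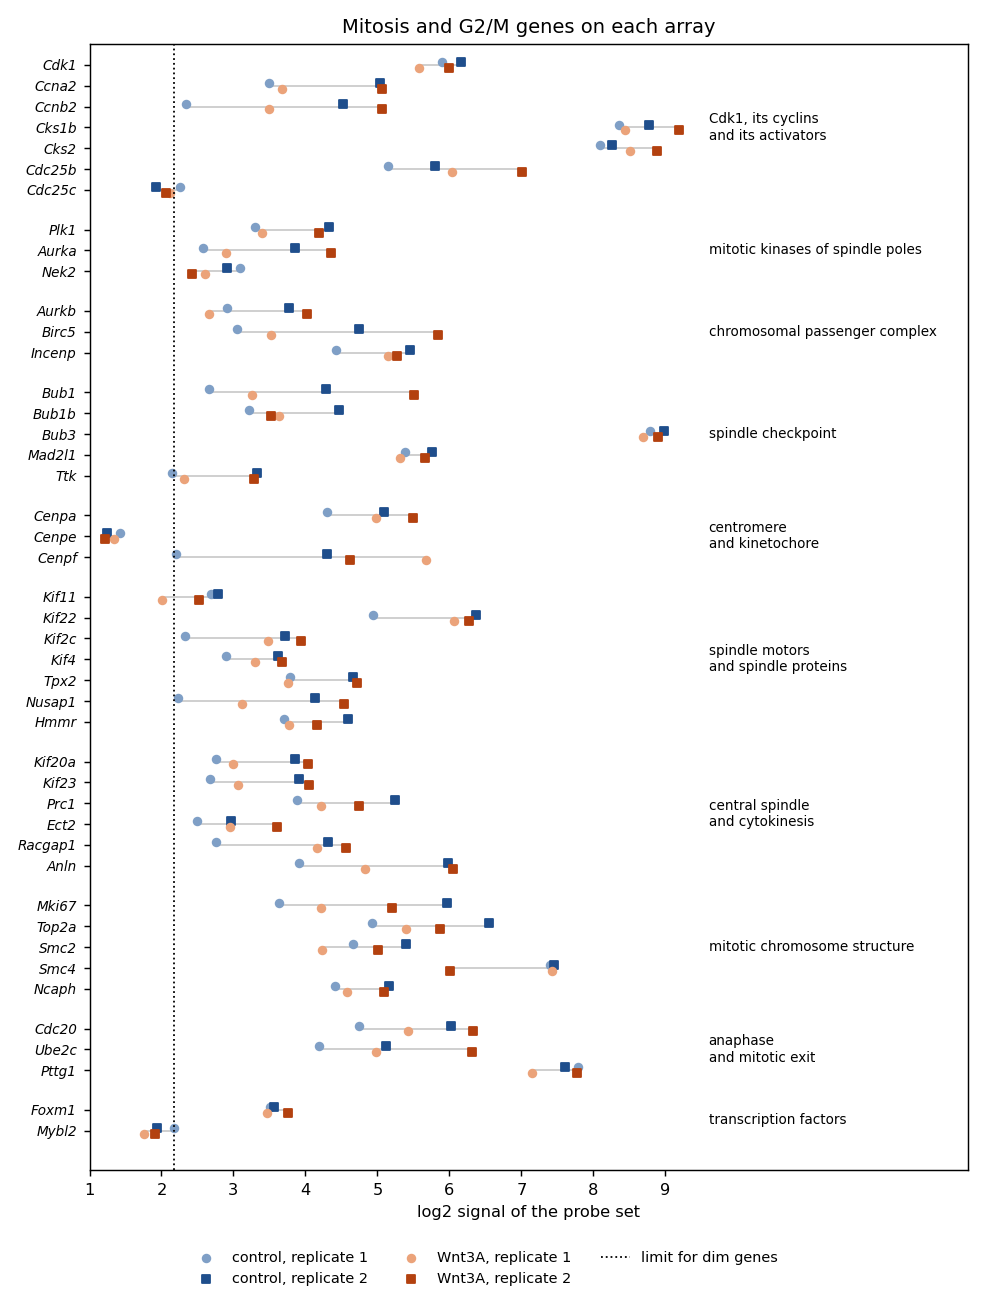
Log2 signal (horizontal axis) of the 44 members on the array, 1 row per gene and grouped by role; circles are replicate 1, squares replicate 2, blue control and orange Wnt3A, and the dotted line is the limit for dim genes at 2.18. For most genes the squares stand to the right of the circles in both colours, and the colours overlap.

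The wider contrast within these data was between replicate numbers. For 36 of 41 members (87.8%) the replicate 2 array read above the replicate 1 array in control and in Wnt3A alike, against 36.4% of all genes tested. At a gap of at least 1.5-fold in both groups there were 18 members (43.9%), against 4.36%. The median gap of replicate 2 over replicate 1 was 1.03 in control, a 2.04-fold level, and 0.62 with Wnt3A, a 1.54-fold level, where all genes gave 0.07 and 0.03. Control replicate 1 was the lowest of the 4 arrays for 30 members (73.2%), against 25.9% of all genes. Wnt3A replicate 2 was the highest for 22 (53.7%, against 32.4%) and control replicate 2 for 16 (39.0%, against 29.9%).

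These gaps are a description of 4 arrays, and no test was made of the replicate number. The controls for 18S ribosomal RNA were lower on replicate 2 in both groups, while the hybridization controls were higher on replicate 2 in control and lower with Wnt3A. Their part in the gap was not tested. Of the 6 myoblast markers 1 lay higher on replicate 2 in both groups, Chrna1, with gaps of 0.95 in control and 0.13 with Wnt3A. The replicate gap of Myog, which drives muscle differentiation, was 1.27 in control and -0.75 with Wnt3A. Of the 10 markers of other cell types 3 were higher on replicate 2 in both groups, Krt19, Csf1r and Pecam1, the last under the limit for dim genes. Over all genes tested the share was 36.4%, and both marker lists are too short to be told apart from it. Krt19, an epithelial keratin gene, had replicate gaps of 1.82 in control and 2.34 with Wnt3A. The widest gaps among the members were 2.34 in control (Mki67) and 2.32 with Wnt3A (Birc5). The summed linear signal of the 10 was 229 and 225 in control and 119 and 200 with Wnt3A, and without Cd14, its brightest gene, 42.8 and 57.0 in control and 47.5 and 112 with Wnt3A. Their part in the replicate gap of the members was not tested. The pattern also appeared on other probe sets of the members, where 16 of 23 further probe sets above the limit, from 17 genes, were higher on replicate 2 in both groups. Some of these genes gave several of the 23, and no share over all probe sets was computed. The median Wnt3A difference of these 23 was -0.0036. The median of 0.22 on the probe sets used covers all tested members, not the 17 genes alone. No median of the used probe sets was computed for the 17, so these values do not compare probe sets of the same genes. Of the 17 genes, 9 had probe sets with differences of both signs.

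The members outside this pattern were Nek2, Bub1b, Cenpf, Smc4 and Pttg1. Nek2 read lower on replicate 2 in both groups. Bub1b, a checkpoint kinase, read 3.21 and 4.46 in control but 3.63 and 3.51 with Wnt3A. Pttg1, the securin that holds separase inactive, stood at 7.78 and 7.61 without and at 7.14 and 7.77 with the ligand. Its groups overlapped, and its lowest array was Wnt3A replicate 1.

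**Figure D2:**
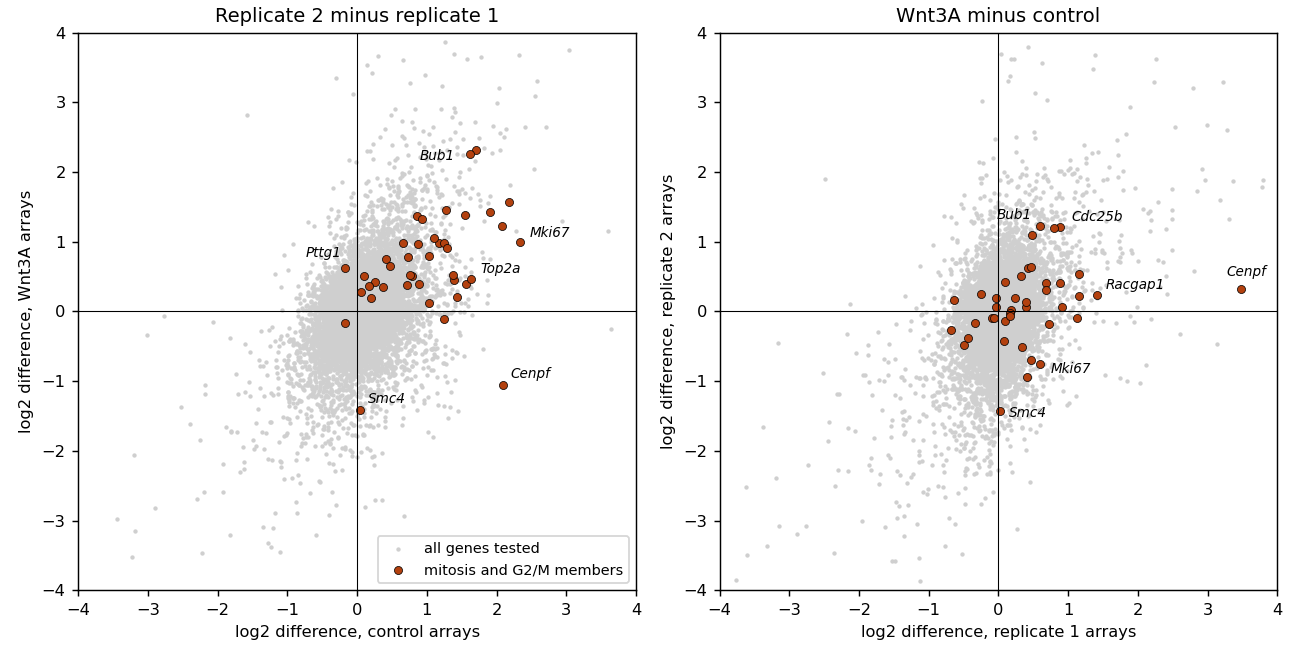
Log2 differences of all genes tested (grey) and of the 41 members (orange); on the left replicate 2 minus replicate 1 in control (horizontal) and in Wnt3A (vertical), on the right Wnt3A minus control within replicate 1 (horizontal) and replicate 2 (vertical), with 11 and 18 grey genes beyond the axes. On the left 36 members stand in the upper right field, and on the right 20 do.

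Promoters of genes in this class are known for a CCAAT box, bound by NF-Y, and for the cell cycle genes homology region (CHR), bound by the MuvB core. Because the members moved together between arrays, the letters were looked up in RefSeq windows of 250 bases before to 50 after the start (GRCm38.p6), which 38 of the 46 members had, in 41 windows. The CHR core TTTGAA, on either strand, was in 29 of the 41 windows (70.7%) and in 17.9% of the 32851 windows of all genes. CCAAT, on either strand, was in 33 (80.5%) and in 37.4% of all. Both were in 27 windows (65.9%), from 24 of the 38 members, against 6.95% of all windows, and neither motif contains the other. The 100 bases before the start are shown for 6 members that differ in how they read on the arrays, with both motifs in capitals on either strand:
Ccnb2, chr9:70421555-70421654, minus strand: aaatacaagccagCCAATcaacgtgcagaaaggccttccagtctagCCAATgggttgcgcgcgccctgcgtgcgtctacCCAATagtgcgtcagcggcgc
Bub1, chr2:127831860-127831959, minus strand: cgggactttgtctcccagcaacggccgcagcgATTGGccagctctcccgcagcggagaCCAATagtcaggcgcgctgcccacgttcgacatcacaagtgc
Ube2c, chr2:164769829-164769928, plus strand: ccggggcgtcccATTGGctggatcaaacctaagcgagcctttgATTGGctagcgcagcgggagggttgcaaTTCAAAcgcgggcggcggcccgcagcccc
Top2a, chr11:99024190-99024289, minus strand: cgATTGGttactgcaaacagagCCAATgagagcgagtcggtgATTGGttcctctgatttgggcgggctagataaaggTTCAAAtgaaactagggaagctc
Cdk1, chr10:69352913-69353012, minus strand: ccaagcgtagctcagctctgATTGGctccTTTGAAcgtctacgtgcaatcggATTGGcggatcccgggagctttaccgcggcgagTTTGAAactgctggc
Cdc25b, chr2:131186848-131186947, plus strand: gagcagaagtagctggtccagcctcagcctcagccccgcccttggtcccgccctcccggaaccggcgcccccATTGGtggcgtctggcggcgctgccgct

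Ccnb2 and Top2a each hold 3 CCAAT letters in these bases, Bub1, Ube2c and Cdk1 hold 2, and Cdc25b holds 1. The CHR core stands once in Ube2c and Top2a, 2 times in Cdk1 and not in these 100 bases of Ccnb2, Bub1 and Cdc25b. For Top2a and Cdc25b the start used was not the start annotated for the gene. The 23 tested members whose whole window held both motifs had a median replicate gap of 1.18 in control and 0.52 with Wnt3A. For the 11 tested members whose window lacked either motif the gaps were 0.75 and 0.62. The median Wnt3A difference was 0.23 in the former and 0.52 in the latter, and these splits are given without a test.

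Cdk1 and its partners were uneven. Cdk1, the kinase that starts mitosis, read 5.90 and 6.16 on the controls and 5.57 and 5.995 under Wnt3A, for a shift of -0.25 (95% confidence interval -0.92 to 0.43). Wnt3A replicate 2 lay between the controls. Ccna2, the gene of cyclin A2, gave 3.49 and 5.03 on the control arrays against 3.67 and 5.06 on the Wnt3A arrays, so its replicate gap of 1.55 in control was far wider than the difference of 0.10 (SE 0.71). Ccnb2, the gene of cyclin B2, stood at 2.34 and 4.52 without and at 3.50 and 5.06 with the ligand. It had the second widest control gap of the members, 2.18, after Mki67, and its difference was 0.85 (SE 0.89).

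Cdc25b, a phosphatase that removes the inhibitory phosphates from Cdk1, stood out from this group. It read 5.15 and 5.80 on the controls and 6.03 and 7.01 under Wnt3A, so that both Wnt3A arrays lay above both controls. The difference was 1.05 (95% confidence interval -0.087 to 2.19, SE 0.43, adjusted p = 0.917 in limma), a 2.07-fold level, and it was 0.89 between the replicate 1 arrays and 1.21 between the replicate 2 arrays. Without Wnt3A replicate 2 it was 0.56, and without Wnt3A replicate 1 it was 1.54. Cks2, a small subunit that binds Cdk1, gave 8.10 and 8.26 on the control arrays against 8.51 and 8.89 on the Wnt3A arrays, for a shift of 0.52 (SE 0.22, adjusted p = 0.917 in limma), and its other probe set gave 0.66. The related Cks1b differed by 0.25, with overlapping groups. Cdc25c, a further Cdk1 phosphatase, read between 1.92 and 2.25 on all 4 arrays and was too dim to test.

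Among the spindle pole kinases, Plk1, which acts in mitotic entry, spindle assembly and cytokinesis, stood at 3.30 and 4.33 without and at 3.40 and 4.19 with the ligand. The difference was -0.020 (95% confidence interval -1.23 to 1.19), and both groups covered the same range. Aurka, needed for spindle poles, differed by 0.41 with overlapping groups. Nek2 read 3.10 and 2.92 on the controls and 2.60 and 2.43 under Wnt3A. It was the member of lowest p, with a shift of -0.49 (95% confidence interval -0.94 to -0.045, SE 0.17, adjusted p = 0.846 in limma). The difference was -0.50 between the replicate 1 arrays and -0.49 between the replicate 2 arrays.

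The chromosomal passenger complex corrects faulty attachments of chromosomes to the spindle. Its kinase gene Aurkb gave 2.91 and 3.77 on the control arrays against 2.66 and 4.02 on the Wnt3A arrays, with the control range inside the Wnt3A range and a shift of -0.0020 (SE 0.55). Birc5, the gene of survivin, stood at 3.05 and 4.74 without and at 3.52 and 5.84 with the ligand. Its gap of 2.32 between the Wnt3A arrays was the widest there among the members. Incenp, the scaffold, read 4.42 and 5.46 on the controls and 5.15 and 5.27 under Wnt3A, inside the control range.

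Spindle checkpoint genes had overlapping groups in every case. Bub1, a kinase at unattached kinetochores, gave 2.66 and 4.29 on the control arrays against 3.26 and 5.51 on the Wnt3A arrays. Each Wnt3A array was above the control of its own number, by 0.59 and 1.22, yet the groups overlapped and the difference of 0.91 had an SE of 0.93. Leaving out Wnt3A replicate 2 gave -0.22, control replicate 1 gave 0.097, control replicate 2 gave 1.72 and Wnt3A replicate 1 gave 2.04. Ttk, the kinase that recruits the checkpoint, stood at 2.15 and 3.32 without and at 2.31 and 3.29 with the ligand. Bub3, a binding partner of Bub1, and Mad2l1, which inhibits Cdc20, differed by -0.094 and -0.078 and had the narrowest replicate gaps of this group, at most 0.20 and 0.38.

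Of the centromere and kinetochore genes, Cenpa, the histone H3 variant of centromeres, read 4.30 and 5.09 on the controls and 4.99 and 5.49 under Wnt3A, for a shift of 0.54 (SE 0.37). Cenpf, a large kinetochore and matrix protein gene, had the widest difference of the members. It gave 2.20 and 4.30 on the control arrays against 5.68 and 4.62 on the Wnt3A arrays, for a shift of 1.90 (95% confidence interval -0.18 to 3.97, SE 0.79, adjusted p = 0.917 in limma). Most of this came from control replicate 1, which read at the limit for dim genes: the replicate 1 arrays differed by 3.48 and the replicate 2 arrays by 0.32, and the difference was 0.85 without control replicate 1. Scaling each array to its hybridization controls brought the adjusted p to 0.0360 in limma, past the threshold, but that scaling called 108 of the 9295 genes (1.16%) and moved the median of all genes to 0.30. Its other probe set read between 2.14 and 2.52 and gave -0.14. Cenpe, a kinetochore motor, read between 1.22 and 1.42 and was not tested.

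All 7 tested genes of the spindle read higher on replicate 2 in both groups, as did 87.8% of the members and 36.4% of all genes. Kif11, the motor that pushes spindle poles apart, stood at 2.68 and 2.78 without and at 2.01 and 2.52 with the ligand, for a shift of -0.47 (SE 0.22, adjusted p = 0.917 in limma). Both Wnt3A arrays were below both controls, but 1 of them was under the limit for dim genes. Kif2c, a microtubule depolymerase, read 2.33 and 3.72 on the controls and 3.48 and 3.94 under Wnt3A, and its difference of 0.69 (SE 0.51) met values of 0.34 and -0.37 on its other probe sets above the limit. Nusap1, a microtubule bundling protein gene, had a gap of 1.90 between the controls and 1.42 between the Wnt3A arrays, against a difference of 0.64. Kif22, Kif4, Tpx2 and Hmmr differed by 0.52, 0.23, 0.011 and -0.18, each with overlapping groups.

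Cytokinesis genes too were all higher on replicate 2 in both groups, 6 of 6, as were 87.8% of the members and 36.4% of all genes. A higher mean under Wnt3A was found for 5 of 6, against 63.4% of the members and 47% of all genes. Racgap1, a subunit of centralspindlin, gave 2.75 and 4.32 on the control arrays against 4.17 and 4.56 on the Wnt3A arrays, for a shift of 0.83 (SE 0.56) that was 1.41 between the replicate 1 arrays and 0.24 between the replicate 2 arrays. Without control replicate 1 it was 0.043 and without control replicate 2 it was 1.61. Its other probe set gave 0.35. Ect2, the exchange factor that activates RhoA for the cleavage furrow, stood at 2.49 and 2.97 without and at 2.96 and 3.60 with the ligand, for a shift of 0.55 (SE 0.31) with groups that just overlapped. Anln, which anchors the contractile ring, had a control gap of 2.07 and a difference of 0.49. Kif20a, Kif23 and Prc1, which build the central spindle, differed by 0.22, 0.26 and -0.088.

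Mitotic chromosome genes included the proliferation marker Mki67, whose protein Ki-67 coats mitotic chromosomes. Mki67 read 3.63 and 5.97 on the controls and 4.22 and 5.21 under Wnt3A, with both Wnt3A arrays between the controls. Its control gap of 2.34 was the widest of the members, its difference was -0.084 (95% confidence interval -2.33 to 2.16), and the replicate pairs had opposite signs, 0.59 and -0.76. Top2a, the topoisomerase that untangles chromosomes, did likewise, with controls at 4.92 and 6.56 around Wnt3A arrays at 5.39 and 5.86, and pair differences of 0.47 and -0.69. Smc2, a condensin subunit, gave 4.66 and 5.39 on the control arrays against 4.23 and 5.01 on the Wnt3A arrays, with pair differences of -0.44 and -0.38 and overlapping groups. Its partner Smc4 stood at 7.40 and 7.45 without and at 7.43 and 6.01 with the ligand, so that 1 array made its difference of -0.70 (SE 0.50). On both other probe sets of Smc4 replicate 2 was lower in control too, at 5.61 against 7.58 and 5.88 against 6.80. Ncaph, a further condensin subunit, differed by 0.049.

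For anaphase and exit, Cdc20, which activates the anaphase-promoting complex, read 4.74 and 6.03 on the controls and 5.42 and 6.33 under Wnt3A. The difference was 0.49 (SE 0.55), and its other probe sets gave 0.48 and -0.19. Ube2c, the ubiquitin-conjugating enzyme of that complex, gave 4.19 and 5.12 on the control arrays against 4.98 and 6.31 on the Wnt3A arrays. Wnt3A replicate 1 lay just under control replicate 2, so the groups overlapped, and the difference of 0.995 (SE 0.57, adjusted p = 0.917 in limma) was 0.79 and 1.20 within the replicate pairs. Without Wnt3A replicate 2 it was 0.33, without control replicate 1 it was 0.53, and without Wnt3A replicate 1 it was 1.66. Foxm1, the transcription factor that drives many of the members, stood at 3.51 and 3.56 without and at 3.47 and 3.75 with the ligand. Its difference of 0.078 (95% confidence interval -0.44 to 0.60) and its replicate gaps of 0.056 and 0.28 were narrow beside those of most members on the probe set used. On its other probe sets above the limit the gaps were 0.45 and 0.65 in control and 0.15 and 0.021 with Wnt3A. Mybl2, the gene of B-Myb, read between 1.76 and 2.18 and was too dim to test.

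**Figure D3:**
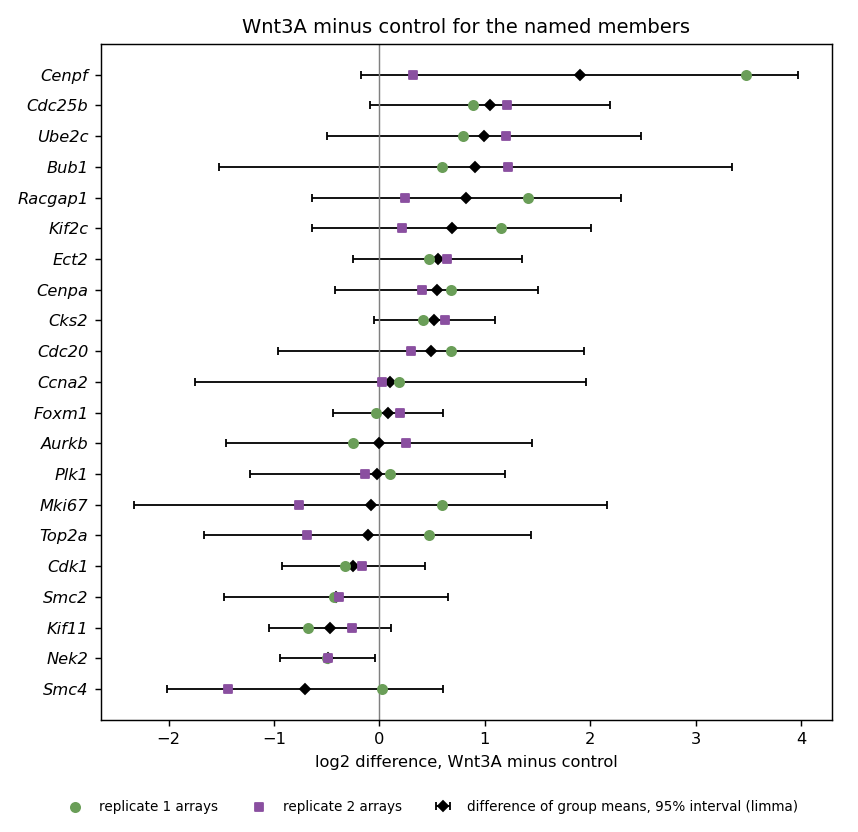
Log2 difference, Wnt3A minus control, for the 21 tested members named by rule: black diamonds with 95% intervals from limma, green circles the replicate 1 arrays and purple squares the replicate 2 arrays. The interval of Nek2 alone leaves out 0, and the pair values of 6 genes, Plk1, Aurkb, Mki67, Top2a, Smc4 and Foxm1, fall on both sides of it.

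Within replicate numbers there is 1 array against 1 and no replicate check. Between the replicate 1 arrays the median difference of the 41 members was 0.39, and 14 (34.1%) were at least 1.5-fold higher with Wnt3A, against 5.42% of all genes, while 2 (4.88%, against 4.05%) were lower by as much. Between the replicate 2 arrays the median was 0.064, with 6 members (14.6%) higher, against 10.2%, and 4 (9.76%) lower, against 14.3%. Under hybridization-control scaling the medians were 0.43 for replicate 1 and 0.66 for replicate 2, where all genes stood at 0.037 and 0.56. Relative to all genes they were 0.39 and 0.095, values that this scaling cannot change. The replicate 1 values rest on control replicate 1, the lowest array for most members. The sign was positive in both pairs for 20 members (48.8%, against 27.1% of all genes) and negative in both for 6 (14.6%, against 30.8%). Only Cdc25b, Ube2c and Bub1 were at least 1.5-fold higher in both pairs, 7.32% of the members against 2.55% of all genes, and none was lower by as much in both, against 2.35%.

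**Figure D4:**
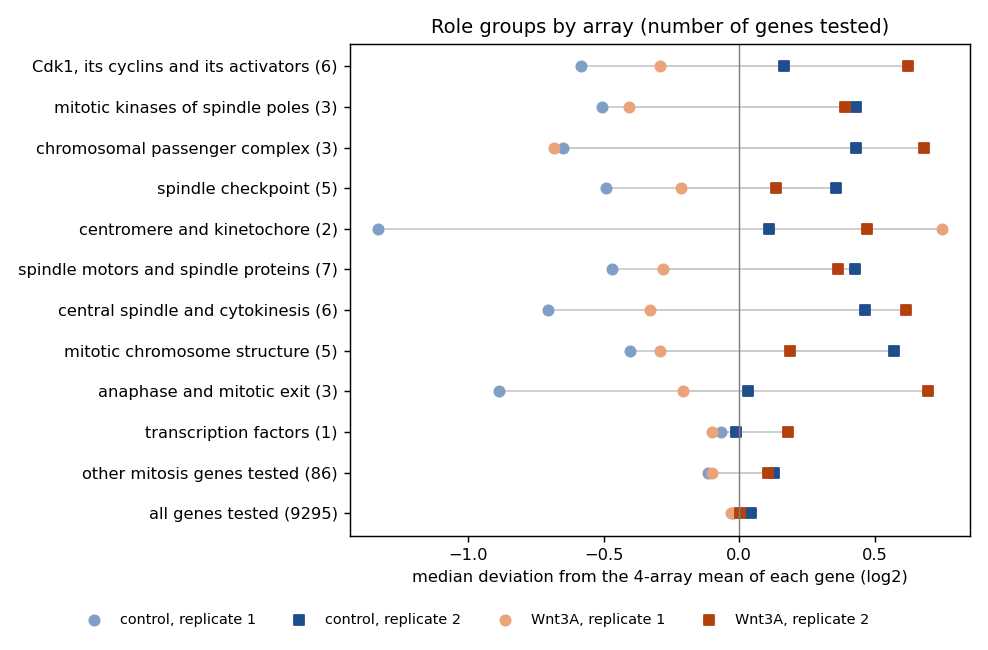
Median deviation of each role group from its genes' own mean over the 4 arrays (log2, horizontal axis), with the number of genes tested in brackets; circles are replicate 1, squares replicate 2, blue control and orange Wnt3A. Control replicate 1 reads lowest or next to lowest in every role group, and all genes together stay near 0.

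Other genes of mitosis were taken from a list of 123, with 88 on the array and 86 tested. None had an adjusted p under 0.05 in limma. At an unadjusted p under 0.05 in limma 0 were higher, against 2.46% of all genes, and 1 was lower, Smc3, against 3.22%. The mean was higher for 49 of the 86, against 47% of all genes, and lower for 37, with a median difference of 0.042. Both Wnt3A arrays were above both controls for 4 of them (4.65%, against 14.7% of all genes) and below both for 12 (14.0%, against 19.8%). Replicate 2 was above replicate 1 in both groups for 50 of 86 (58.1%, against 36.4%), with median gaps of 0.29 in control and 0.22 with Wnt3A, narrower than in the members. In the higher direction the lowest p went to Stil and Kifc1, genes of centriole duplication and of a minus-end spindle motor, with differences of 0.44 and 0.70, and to Mis12 (0.36) and Cenpb (0.46). Both control arrays of Stil, at 1.96 and 2.15, were under the limit for dim genes, so that it was tested only through its Wnt3A arrays at 2.30 and 2.68. In the lower direction, Smc3, a core subunit of the ring that holds sister chromatids, read 6.69 and 6.93 on the controls and 6.32 and 5.995 under Wnt3A, for a shift of -0.66 (SE 0.24, adjusted p = 0.867 in limma). Stag2 and Smc1a, further cohesin subunits, differed by -0.53 and -0.39, and E2f4, the repressor E2F of DREAM, by -0.29, each with both Wnt3A arrays below both controls. Smc1a was at -0.086 with the mean of its probe sets. Of all 11 condensin and cohesin genes tested from that list, 8 had a higher and 3 a lower mean, with a median of 0.048, and the cohesin subunit Rad21 differed by 0.20.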

How the data were processed

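The members, lists and rules were chosen with earlier results of these data known. Each probe set has 1 deposited value on an array, taken as a log2 signal from the range of 0.50 to 13.23. The submitters' processing notes name GCOS and PLIER without a role; log base and normalization: not given in the sources used here. Of 22690 probe sets, 64 are array controls, 691 name several genes and 1555 more are not listed. Symbols came from the platform annotation, updated by Entrez ID to RefSeq of GRCm38.p6. A gene was its probe set of highest mean, and the lowest 25% of genes were not tested. One gene was not analysed here.

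Tests were run in R 4.3.3 with limma 3.58.1 (lmFit and eBayes with intensity trend, two-sided, threshold 0.05) on all 4 arrays, after the procedure was tested on simulated data. The simulated arrays had independent noise and no replicate gap shared by the groups, so they do not cover that feature of these data. The number of arrays limits the precision, and 2 against 2 in an exact permutation test cannot go below p = 0.333. Named were members at least 1.5-fold apart without overlap, the 12 of lowest p, 11 fixed genes, and 4 other mitosis genes per direction. Alternatives changed scaling, filter, probe set choice, trend, replicate block and arrays.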

Additional observations from a re-analysis of the deposited data

How the results depend on the processing

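No tested member passed an adjusted p of 0.05 in limma under any alternative except scaling to hybridization controls, where 1 of 41 did (2.44%), Cenpf (adjusted p = 0.0360), against 108 of all 9295 genes (1.16%). That scaling gave 8 members with both Wnt3A arrays above both controls and 0 below, with the median of all genes moved to 0.30. The other mitosis genes had a median of 0.36, still 0.063 above that of all genes, since the scaling shifts all genes of an array equally. It put Cdk1 at 0.070, Plk1 at 0.30, Aurkb at 0.31, Mki67 at 0.23, Top2a at 0.21 and E2f4 at 0.022, all under or near the shift of 0.30 in all genes. No share of all genes was computed for counts above or below that an alternative moved, so these counts are given without a reading. Quantile normalization turned Plk1 to 0.011 and Aurkb to 0.038, the mean of probe sets turned Aurkb to 0.092, and with the dimmer 50% left out, which tested 15 members, 0 lay below. The median of the members was 0.11 with the mean of probe sets and 0.091 with no filter. Alternatives for the medians within replicate numbers were added after seeing the data. Scaling to hybridization controls put replicate 1 at 0.43 and replicate 2 at 0.66, against 0.39 and 0.064, with all genes moved to 0.037 and 0.56, and the mean of probe sets gave 0.25 and 0.012.

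With each array left out in turn the count of members above ran from 3 to 30 and below from 3 to 17. A group of 1 array against 2 keeps apart more easily, and the shares of all genes were not computed there. The differences ran from -0.68 to 0.68 for Aurkb, -0.22 to 2.04 for Bub1, -0.67 to 0.88 for Ccna2, -0.15 to 1.13 for Cdc20, -0.063 to 0.22 for Foxm1, -0.0071 to 1.38 for Kif2c, -1.25 to 1.09 for Mki67, -0.53 to 0.49 for Plk1, -1.41 to 0.0044 for Smc4 and -0.93 to 0.71 for Top2a. Of the other named genes 16 kept their sign but moved by over 1.5 times with some array left out, among them Racgap1 (0.043 to 1.61), Smc2 (-0.80 to -0.017), Ube2c (0.33 to 1.66), Cenpa (0.15 to 0.93), Kifc1 (0.21 to 1.18) and Cdk1 (-0.46 to -0.034). Of the 29 named genes, 17 kept 1 sign under the alternatives in which they were tested, and only 13 were tested with the dimmer 50% left out.

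The replicate number as a block gave 83 genes in all (0.893%) and 0 members, with a lowest adjusted p among members of 0.138 in limma, for Cdc25b, where the SE was 0.23. In that fit the SE was 0.24 for Ube2c, 0.25 for Bub1 and Ccnb2 and 0.32 for Racgap1, below that of the fit on the group alone. For Nek2 it was 0.19, against 0.17. The gaps between replicates in control and in Wnt3A correlated at r = 0.478 across the 9295 genes, which are not independent. The labels do not say that a number pairs cultures.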
